A study of Homo sapiens with 6 samples.

Results

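The genes examined were 10 human genes that add or remove the methyl group on the N6 position of adenine in DNA or RNA: N6AMT1, TRMT112, METTL4, METTL3, METTL14, WTAP, ALKBH1, ALKBH4, ALKBH5 and FTO. They were taken by name from 20136 protein-coding genes, whatever their signal, and a peak belonged to a gene if it overlapped the gene body or the 5000 bp on either side. By this rule the 10 genes held 22 of 143552 peaks, which merged into 14 of 72537 regions. The data were 6mA-IP-seq peak lists from MDA-MB-453 cells, a long-established line of human breast cancer. In this assay sheared genomic DNA is pulled down with an antibody against N6-methyladenine (6mA) and sequenced, and stretches with an excess of fragments over the local background are called as peaks. The control cells were transfected with a scrambled siRNA and the si-N6AMT1 cells with an siRNA against N6AMT1. Both siRNAs were used at 10 nM for 48 h with a lipid reagent. No genotype or further treatment set the groups apart. Each group had 2 immunoprecipitated libraries, described by the submitters as biological replicates, and 1 input library that was not used here.

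Members of the DNA adenine methylation machinery overlap with those of protein and RNA methylation. N6AMT1, which works as a complex with its small partner TRMT112, is known as a glutamine methyltransferase and has been reported as a DNA 6mA methyltransferase, and METTL4 as a methyltransferase of adenine in DNA and small nuclear RNA. METTL3, METTL14 and WTAP are the catalytic subunit, the RNA-binding partner and a regulatory subunit of the writer of N6-methyladenosine (m6A) in messenger RNA. ALKBH1 and ALKBH4 are oxygenases of the AlkB family reported to remove 6mA from DNA, while ALKBH5 and FTO, of the same family, remove m6A from RNA. A peak list holds no expression values, so neither the fall of N6AMT1 transcript after siRNA nor markers of the cell line could be checked in these data.

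The sequence under the peak upstream of WTAP is printed here as an example of the low-complexity sequence that recurs below. It is the plus strand of GRCh37, 5′ to 3′, centred on the peak summit, at chr6:160145895-160146094. Capitals mark its longest unbroken run of purines (A or G).
WTAP: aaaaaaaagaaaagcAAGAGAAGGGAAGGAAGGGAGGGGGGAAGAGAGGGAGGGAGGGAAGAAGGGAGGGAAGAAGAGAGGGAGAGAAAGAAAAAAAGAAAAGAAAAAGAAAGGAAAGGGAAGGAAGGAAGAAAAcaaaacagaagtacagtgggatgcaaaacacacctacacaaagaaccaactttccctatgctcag
The run in capitals was 120 bases long, and 51.5% of the window was A and 34% G.

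The libraries differed in size in a way that bears on every count that follows. The control lists held 30451 and 33410 peaks and the si-N6AMT1 lists 38847 and 40844, and the depth recovered from the background of each list, relative to control replicate 1, was 1.32 for the second control library, then 1.38 and 1.5 in the first and second si-N6AMT1 libraries. Both knockdown libraries were thus deeper than both controls. At the lowest background of a list, 8 fragments at a summit were needed to pass the threshold of the caller in control replicate 1 and 9 in each of the other libraries, against a median of 17 to 19 fragments at called summits.

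The first comparison asked how many of these genes carried 6mA peaks in control cells and after N6AMT1 knockdown. Of the 10 genes, 3 held a peak in each control library, 4 in the first si-N6AMT1 library and 6 in the second. Over all protein-coding genes the share with a peak was 34.5%, 35.5%, 40.3% and 41% in the same order. Counted over any library, 6 of the 10 genes held a peak, N6AMT1, METTL4, METTL3, METTL14, WTAP and FTO, beside 54.2% of all protein-coding genes. Across libraries, the knockdown counts stood above both controls, with means of 3 ± 0 genes for control against 5 ± 1.41 for si-N6AMT1 (SD, n = 2). For the difference of 2 genes the exact two-sided permutation p was 0.333, and no smaller value is possible with 2 libraries against 2. Without si-N6AMT1 replicate 2, the library with the most peaks, the difference was 1 gene, and without si-N6AMT1 replicate 1 it was 3.

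The number of peaks at these genes was 4 in each control library, 6 in the first knockdown library and 8 in the second. The means were 4 ± 0 and 7 ± 1.41 peaks (SD, n = 2), and the difference of 3 peaks had p = 0.333 in the exact permutation test. With each list shortened to the 30451 peaks of lowest p-value, the counts were 4, 4, 5 and 7. The difference was then 2 peaks, smaller than with the full lists. Per 100 kb of gene window the density was 0.533 peaks in each control, then 0.80 and 1.07 in the knockdown libraries. For all protein-coding genes it was 1.01, 1.10, 1.30 and 1.34. The density at the 10 genes was therefore below the average of coding genes in every library, at 0.527, 0.487, 0.615 and 0.796 times it. With the lists shortened as above, the mean of this ratio over the libraries was 0.664. FTO holds most of the combined length, and without FTO the mean ratio over the libraries was 0.868 instead of 0.606. The other 9 genes had 0.706 peaks per 100 kb in each control, then 1.06 and 1.76 in the knockdown libraries, so in the last of these they stood above the coding-gene average. FTO held 2, 2, 3 and 3 of the 4, 4, 6 and 8 peaks, so these densities rest on few peaks and their order could be counting error.

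**Figure D1:**
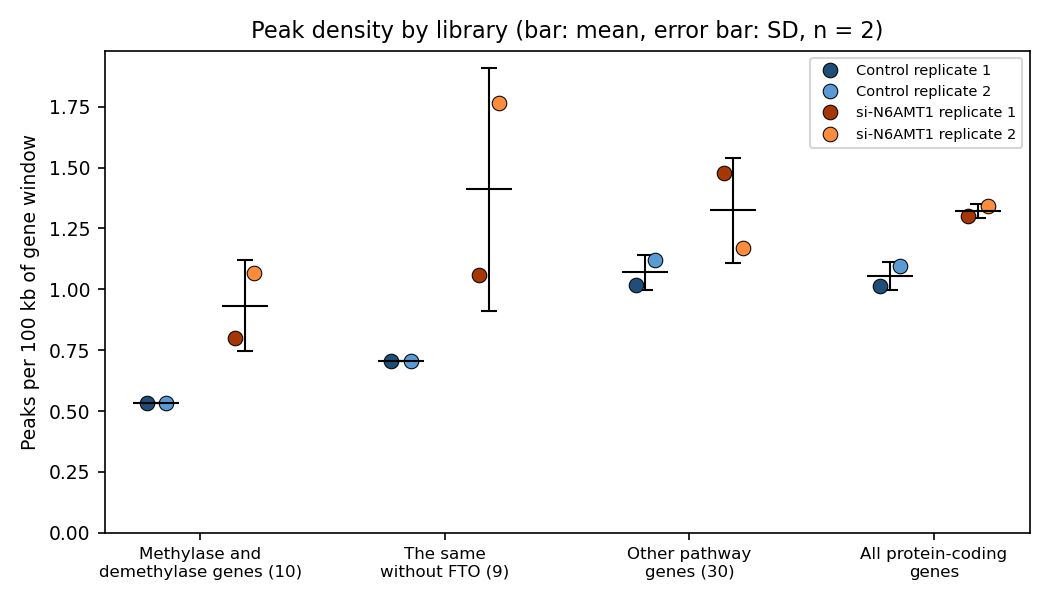
Peaks per 100 kb of gene window (vertical axis) in each of the 4 libraries for the 10 adenine methylase and demethylase genes, the same without FTO, the 30 further pathway genes and all protein-coding genes. Points are libraries, and the horizontal bar with its error bar is the mean ± SD of the 2 libraries of a group. The 10 genes lie at 0.533 in both controls and at 0.80 and 1.07 in the knockdown libraries, below all coding genes each time, while without FTO the highest library reaches 1.76.

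Merged into regions, 2 of the 14 were called in all 4 libraries (16.6% of regions at protein-coding genes were), 0 only in both controls (2.63%), 1 only in both si-N6AMT1 libraries (5.66%) and 10 in a single library (50.4%). The remaining region was called in control replicate 1 and si-N6AMT1 replicate 2. In terms of genes, 2 of 10 had a region called in all libraries against 18.7% of coding genes, 1 had a region called only in the knockdown against 8.79%, and none had a region called only in control against 4.41%. Of the single-library regions, 3 came from a control list and 7 from a knockdown list, with folds of 4.98 to 9.73 (median 6.40) and 12 to 22 fragments at the summit. The knockdown share of 70% stood beside 62.5% of the 17589 single-library regions at coding genes.

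N6AMT1 itself, the target of the siRNA (ENSG00000156239.12, chr21:30244513-30257693, minus strand), held 1 region, and it was among the most enriched of the regions called in all libraries. The region at chr21:30249346-30250147, 802 bp long, lay inside intron 5 of the canonical transcript of 6 exons, an intron of 1700 bp, with summits 7887 to 8001 bp from the gene start. Fold enrichment, which divides the summit fragments by those of the background after adding 1 to both, was 19.9 and 17.1 in control replicates 1 and 2, and 19.5 and 20.2 in si-N6AMT1 replicates 1 and 2. The values of the groups overlapped, since control replicate 1 stood above si-N6AMT1 replicate 1. The fragments behind them numbered 41 in each control (95% Poisson interval 29.4 to 55.6), 46 in the first knockdown library (33.7 to 61.4) and 50 in the second (37.1 to 65.9), where such intervals cover counting error only. The 4 summits lay within 114 bp of each other. The mean fold of 19.2 ± 1.43 (SD, n = 4) ranked 31 among 12132 regions called in all libraries, whose median mean fold was 8.55. Its width was unremarkable, with 60.5% of those regions narrower.

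Whether the fold at N6AMT1 changed with the siRNA was tested with limma over all 12132 regions. The log2 difference, si-N6AMT1 minus control, was 0.10 with SE 0.26 and a 95% interval of −0.41 to 0.61 (adjusted p = 0.932, Benjamini-Hochberg). The gene whose transcript was targeted thus kept a called region in every library, without a change past the threshold. In the same limma fit, 0.0495% of regions passed the adjusted threshold of 0.05 with a higher fold and 0.19% with a lower fold, and neither region shared by all libraries at these genes was among them. TRMT112 (ENSG00000173113.7, chr11:64083932-64085031), the partner that stabilises N6AMT1, held no peak in any library. Its gene body is 1.10 kb, the shortest of the 10, and the nearest peak lay 61.9 to 62.0 kb away in all libraries.

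METTL4 (ENSG00000101574.15, chr18:2537524-2571508, minus strand) held the single region found only in both knockdown libraries. That region, chr18:2558544-2558949 in intron 3 of 9 exons, had a fold of 6.21 on 14 fragments in si-N6AMT1 replicate 1 and 7.52 on 18 fragments in si-N6AMT1 replicate 2, with summits 104 bp apart. Neither control list had a peak there, and each value lay at a middling place in its own list, above 34.9% and 67.9% of folds. A different peak of METTL4 was called in control replicate 1 alone, at chr18:2551582-2551946 in intron 5, with a fold of 6.84 on 13 fragments. The gene as a whole was therefore called in control replicate 1 and in both knockdown libraries. Its level without a call is not in a peak list, so a fold between groups cannot be given for either place.

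**Figure D2:**
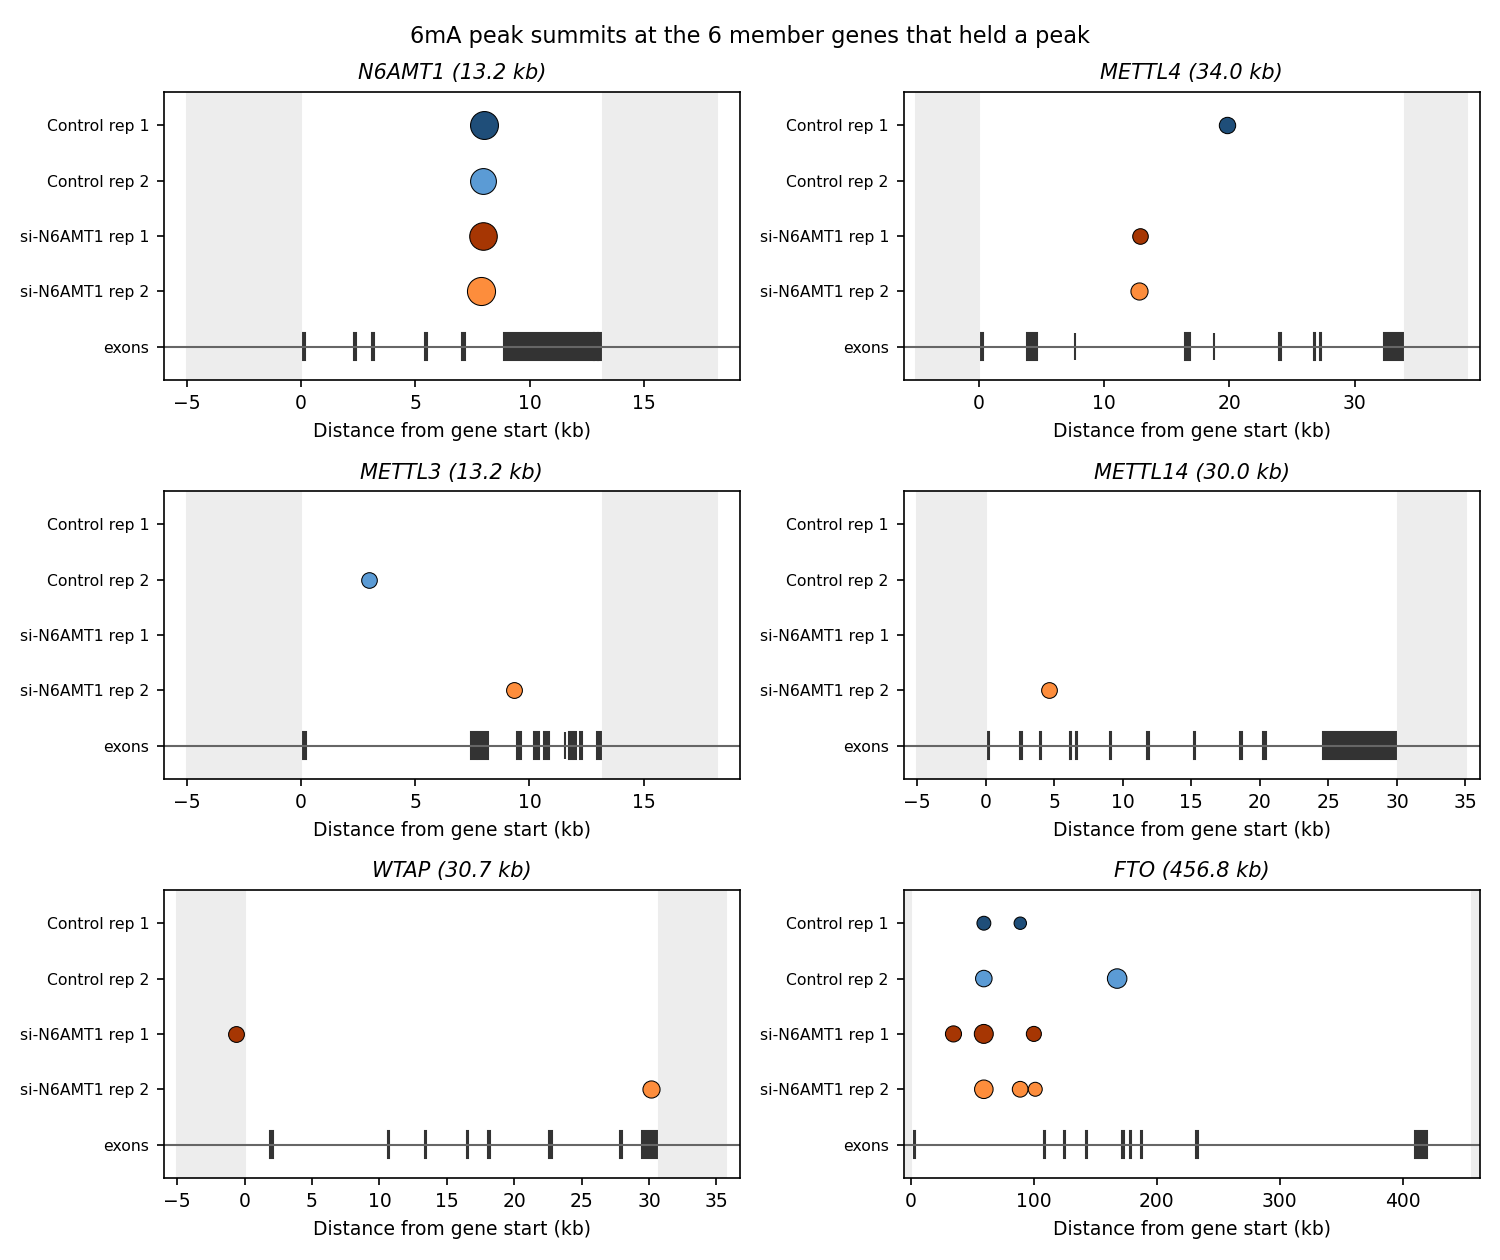
Maps of the 6 genes with a peak, drawn from the gene start in the direction of transcription (horizontal axis, distance in kb, a scale of its own for each gene), with exons of the canonical transcript as boxes, grey for the 5000 bp on either side, and each peak summit as a circle in the lane of its library, larger for a higher fold. N6AMT1 shows 1 large circle at the same place in all 4 lanes, and the 10 peaks of FTO lie in the first 36.7% of the gene.

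The subunits of the messenger RNA m6A writer carried only single-library peaks, none shared between replicates. METTL3 (ENSG00000165819.12, chr14:21966277-21979484, minus strand) had a peak in intron 1 in control replicate 2, at chr14:21976279-21976645 with a fold of 6.25 on 22 fragments, and another in intron 3 in si-N6AMT1 replicate 2, at chr14:21969996-21970337 with a fold of 6.40 on 16. The folds were alike while the background under them was 2.68 and 1.66 fragments. METTL14 (ENSG00000145388.15, chr4:119606547-119636588, plus strand) had 1 peak, in si-N6AMT1 replicate 2, at chr4:119611040-119611380 in intron 3 with a fold of 6.33 on 15 fragments.

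WTAP (ENSG00000146457.16, chr6:160146617-160177351, plus strand) was the only one of the 10 with a peak outside introns, and it had a pair of them. In si-N6AMT1 replicate 1 a peak at chr6:160145763-160146161 had its summit upstream of the gene, at −622 bp from its start, with a fold of 6.40 on 20 fragments. In si-N6AMT1 replicate 2 a peak at chr6:160176537-160176925 fell in an annotated untranslated or noncoding exon at 98.0% of the gene length, with a fold of 7.52 on 18 fragments. Both also lie inside the annotation of SOD2, mitochondrial superoxide dismutase, on the opposite strand. The controls had no peak within 12692 bp of the WTAP gene body.

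Among the demethylases, ALKBH1, ALKBH4 and ALKBH5 held no peak in any library. ALKBH1 (ENSG00000100601.10, chr14:78138747-78174366) had its nearest peak 17.4 to 134 kb from the gene body, depending on the library. For ALKBH4 (ENSG00000160993.4, chr7:102096685-102105310) that distance was 10.1 to 367 kb and for ALKBH5 (ENSG00000091542.9, chr17:18086392-18113268) 109 to 202 kb. Among 7087 coding genes with a window of 10 to 25 kb, 26% held a peak in some library, and 2 of the 4 members of that length did. Among 5052 with a window of 25 to 50 kb, 49.2% did, and so did 3 of 5 members. Genes without a peak were thus common at these lengths.

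FTO (ENSG00000140718.22, chr16:53735604-54192424, plus strand), the RNA m6A demethylase and the longest member at 457 kb, held 10 of the 22 peaks in 6 of the 14 regions. Its counts were 2, 2, 3 and 3 peaks in control replicates 1 and 2 and si-N6AMT1 replicates 1 and 2. This lay in the lower part of the range for its length: 192 coding genes with windows of 400 to 500 kb had a median of 4 peaks per library (interquartile range 2.25 to 7), and 26% of them lay below the mean of 2.5 for FTO. The summits lay 34.6 to 168 kb from the gene start, and the last 289 kb of the gene held none. Of the 6 regions, 5 were in intron 1, which is 105910 bp long, and 1 in intron 4.

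The FTO region called in every library, chr16:53794683-53795301 in intron 1, had folds of 4.92 and 6.99 in control replicates 1 and 2, and of 9.20 and 8.80 in si-N6AMT1 replicates 1 and 2. Both knockdown folds stood above both control folds, an order found in 16.9% of the regions called in all libraries, while 24.3% had the opposite order. The limma estimate of the log2 difference was 0.62 with SE 0.26 and a 95% interval of 0.11 to 1.13 (limma, Benjamini-Hochberg adjusted p = 0.290), so the change did not pass the threshold. Without control replicate 1, which had the lowest fold, the difference was 0.36. The fragments were 13, 23, 22 and 22 and the background 1.84, 2.43, 1.5 and 1.61 in the same order. On fragments per relative depth in place of fold, the limma difference was 0.02 (adjusted p = 0.997). Both knockdown backgrounds thus lay below both control backgrounds, while fragments per depth hardly differed between the group means. That does not hold for each pair of libraries, and why the fold was higher was not tested. The mean fold of this region, 7.48 ± 1.96 (SD, n = 4), ranked 8479 of 12132.

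**Figure D3:**
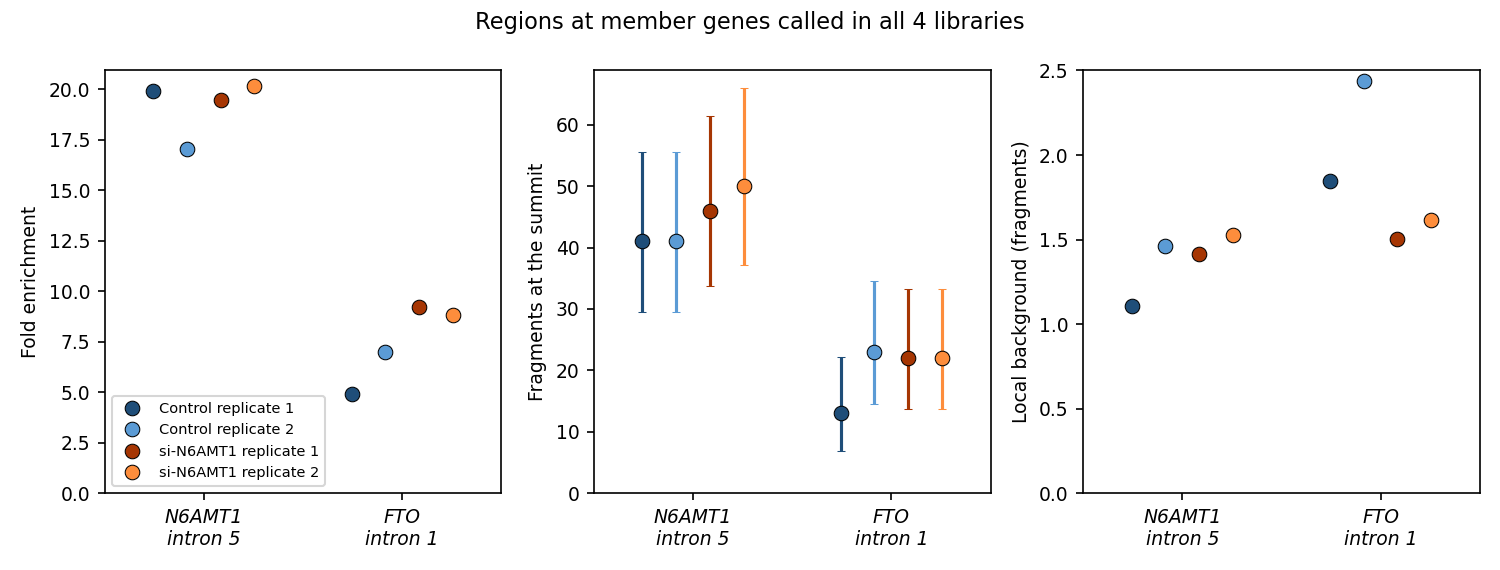
Fold enrichment, fragments at the summit and local background in fragments (vertical axes, left to right) in each library for the 2 regions called in all 4 libraries, at N6AMT1 and FTO. Points are libraries, and error bars on the fragments are 95% Poisson intervals. At N6AMT1 the folds lie between 17.1 and 20.2 with the groups overlapping, and at FTO the knockdown folds of 9.20 and 8.80 lie above 4.92 and 6.99.

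The other FTO regions were called in at most 2 libraries. The one at chr16:53824208-53824917 had a fold of 3.93 on 8 fragments in control replicate 1 and 6.33 on 15 fragments in si-N6AMT1 replicate 2, with summits 79 bp apart. The control value was close to the lowest that the caller accepted, above 0.501% of the folds in its list. The 4 called once had folds from 4.98 to 9.73. The highest of these, in control replicate 2, lay in intron 4.

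**Figure D4:**
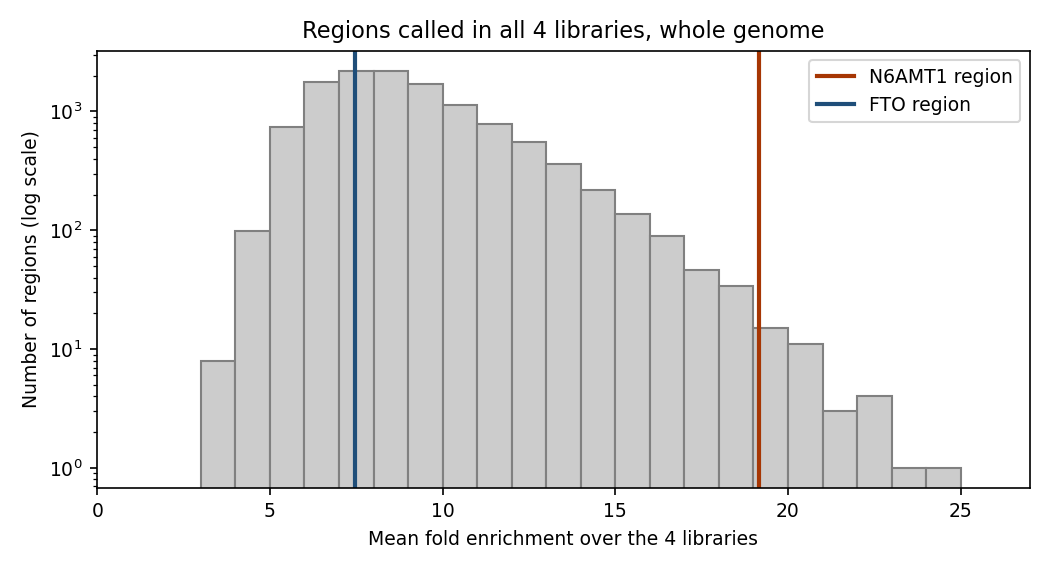
Number of regions (vertical axis, log scale) by mean fold enrichment over the 4 libraries (horizontal axis) for the 12132 regions called in all libraries. Lines mark N6AMT1 at 19.2, ranked 31, and FTO at 7.48, ranked 8479.

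By position, 20 of the 22 peaks, from 12 regions in 5 genes, had their summit in an intron. The others were the promoter peak and the exon peak of WTAP. That promoter belongs to another annotated transcript, since the canonical one starts 1.92 kb into the gene. None fell in a coding exon or in the flanks beyond the promoter.

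The sequence under the summits was described next, since the rule did not use it. In windows of 200 bp around the strongest summit, 7 of the 14 regions held a run of at least 12 A or T of a single kind (50%, exact 95% interval 23 to 77), against 23.7% of 72532 nuclear regions and 4.71% of windows placed 1000 bp downstream of those summits. Of the 4 regions called in 2 or more libraries, 1 held such a run (25%), near the share of all nuclear regions, so the others were in single-library regions. A run of at least 30 purines or pyrimidines was present in 5 of 14 (35.7%, 12.8 to 64.9) against 21.8% and 1.21%. A repeat of at least 6 CA or TG units was present in 1 of 14 (7.14%, 0.181 to 33.9), the intron 1 peak of METTL3 with 8 units, against 7.37% and 0.968%. One or more of the 3 features was found in 12 of 14 regions (85.7%, 57.2 to 98.2), against 44.6% of all nuclear regions and 6.29% of downstream windows. At the same 14 regions, 1 downstream and 0 upstream windows had any of them. Of the 4 regions called in 2 or more libraries, 3 held one or more of the features (75%, 19.4 to 99.4). These intervals treat the regions as separate draws, although 6 of the 14 lay in FTO. All runs were searched on both strands, and a long run of a single base also counts toward a purine or pyrimidine run.

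**Figure D5:**
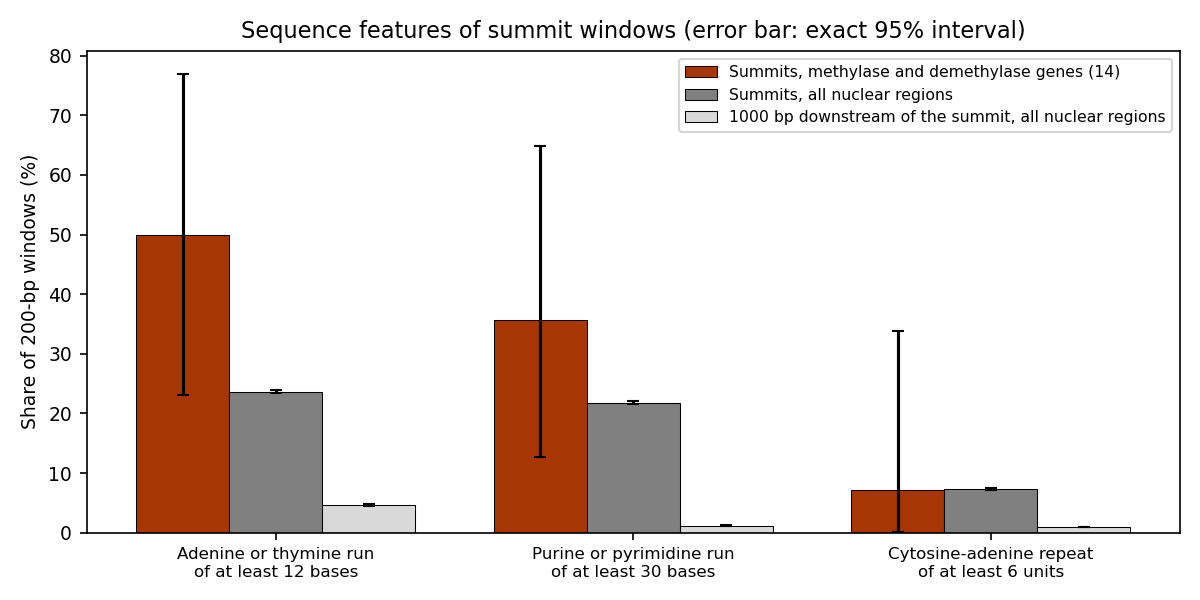
Share of 200-bp windows (vertical axis, percent) with each of 3 low-complexity features at the 14 summits of the 10 genes, at the summits of all nuclear regions and at windows 1000 bp downstream of those. Error bars are exact 95% intervals for counting error only. For A or T runs the shares are 50%, 23.7% and 4.71%.

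The regions differed in which feature they held. N6AMT1 was nearly pure purine on the plus strand: 96.5% of the 200 bases at the summit were purines of a single strand, above 97.1% of nuclear regions. Its longest unbroken purine run was 60 bases in that window and 328 bases in the whole region. The FTO region shared by all libraries held the complementary case on the plus strand, with a pyrimidine run of 94 bases. FTO lies on the plus strand and N6AMT1 on the minus strand, so both regions held pyrimidines on the sense strand of their gene. The WTAP upstream region, printed above, went the other way, with a purine run of 120 bases on the sense strand of WTAP. Single-base runs marked METTL14 (21 bases), METTL3 in intron 3 (20), the 3′ end of WTAP (25) and 4 FTO regions (14 to 21). The exceptions were the knockdown-only region of METTL4, whose longest single-base run in the window was 8 bases at 71.0% A and T, and FTO at chr16:53836562-53836912. What share of the pulled-down fragments such repeated sequence accounts for was not tested.

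The motif CAGG followed by C or T, a part of the wider 6mA motif of the study, which starts with G or C, was searched on both strands in the same windows. It was found in 9 of 14 windows (64.3%, 35.1 to 87.2), against 39.9% of all nuclear regions, but also in 53.4% of the downstream windows. At the same 14 regions, 6 downstream windows (42.9%) and 10 upstream windows (71.4%) held the motif. It was absent from the whole of the N6AMT1 region and of the knockdown-only METTL4 region. The WTAP region at chr6:160176537-160176925 and the FTO region at chr16:53903210-53903634 also lacked it throughout. How many of all nuclear regions lack it over their whole length was not counted. In 100-bp windows it was found in 1 of 14, against 20.8% of nuclear regions. The wider motif, G or C followed by AGG and then C or T, was also found in 9 of 14 windows of 200 bp, against 58.5% of nuclear regions and 70% of downstream windows, and in 3 of 14 windows of 100 bp against 33.4%. It too was absent from the whole of the same N6AMT1, METTL4, WTAP and FTO regions.

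A further 30 genes of adenine methylation, its readers and relatives, were counted in the same way. Of these, 17 (56.7%) held a peak in some library and 13 held none, close to the 54.2% of all protein-coding genes with a peak. Their peaks numbered 20 and 22 in the controls, then 29 and 23 after knockdown, with means of 21 ± 1.41 and 26 ± 4.24 (SD, n = 2) and p = 0.333 in the exact permutation test. The number of genes with a peak was 12, 11, 13 and 12 (exact permutation p = 0.667), so these counts overlapped, while the shares of all coding genes ran from 34.5% to 41%. The difference of 5 peaks was 2 without si-N6AMT1 replicate 1 and 8 without si-N6AMT1 replicate 2, and with lists of equal length it turned to −1.5. Of their 53 regions, 6 (11.3%) were called in all libraries, 4 (7.55%) only in control, 6 (11.3%) only in the knockdown and 28 (52.8%) in a single library, beside 16.6%, 2.63%, 5.66% and 50.4% of regions at coding genes.

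The 6 regions called in all libraries lay in 4 genes, 3 of them in TRMT11, and the mean fold of each, 5.60 to 8.62, was below the 19.2 of N6AMT1. ZCCHC4, an m6A methyltransferase of ribosomal RNA, had control folds of 7.38 and 9.71 against 6.29 and 7.32 after knockdown. TRMT11, a transfer RNA methyltransferase that like N6AMT1 pairs with TRMT112, had 9.60 and 8.60 against 10.4 and 5.93 at chr6:126456025-126456943, 9.13 and 8.79 against 6.89 and 7.47 at chr6:126472595-126473241, and 5.25 and 5.43 against 5.80 and 5.93 at chr6:126514046-126514698. The m6A reader YTHDC2 had 7.78 and 8.90 against 4.75 and 7.60, at chr5:112872920-112873407. IGF2BP2, an RNA-binding protein that reads m6A, had 7.55 and 8.14 against 5.58 and 4.0, at chr3:185382791-185383583. Both knockdown folds lay below both controls in 4 of the 6 regions and above them in 1, beside 24.3% and 16.9% of all regions called in every library. In the limma fit the log2 difference was −0.73 with SE 0.26 at IGF2BP2 (adjusted p = 0.185), and the adjusted p was 0.467 at YTHDC2, 0.691 at ZCCHC4 and 0.691 to 0.905 at the TRMT11 regions.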

How the data were processed

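Groups were taken from the sample titles. Reads were aligned by the authors to hg19 with bowtie2 (2.3.5 in the submitters' processing notes). Duplicates were taken out with SAMtools 1.9, and MACS2 called peaks per immunoprecipitated library with p below 1e-05. Which input served as background is not given in the sources used here. The deposited score is 10 times the −log10 p, shortened to a whole number, and was not used. The deposited fold enrichment is the ratio of pileup to local background, with 1 added to each, so that it understates low-background peaks. The −log10 p and −log10 q in the deposited lists are those of the summits. Removal of duplicates can understate pileups over repeated sequence. Fold and −log10 p together gave the whole-number pileup and the background of each summit, within a tolerance of 0.02 for 100% of peaks, except 5 mitochondrial peaks in each library.

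The 10 genes, the 30 pathway genes and all lists and tests were chosen with earlier results of these data known. Genes came from GENCODE release 44 lifted to GRCh37, and 0 of 143532 nuclear peaks ran beyond their GRCh37 chromosome. Peaks sharing at least 1 bp were merged into regions. A promoter was within 1000 bp of the start of any transcript in the basic annotation, while introns were numbered on the canonical transcript. All members were named, with every region called in 2 or more libraries. Single-library regions were to be named only where a gene held no other region, and those of METTL4 and METTL3 were named in addition after their values were seen, as were intron 4 of FTO and the FTO region without a sequence feature. Pathway genes were named where a region was called in all libraries. The printed WTAP sequence was also chosen after its values were seen, and the sequences of other regions are not reported here.

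Counts per library were compared by exact permutation of the library labels (two-sided, smallest p 0.333). Folds of regions called in all libraries were compared on the log2 scale with limma 3.58.1 in R 4.3.3, with Benjamini-Hochberg adjustment over 12132 regions. The limma fit, the recovery of pileups, the merging into regions and the overlap with genes were tested on simulated data. Tools were samtools 1.23.1, pysam 0.24.0, pandas 2.3.3, scipy 1.17.1, numpy 2.4.6 and matplotlib 3.10.9 under Python 3.11.15. Read totals were not used here, and relative depth was the lowest background of a list divided by its smallest peak width. The alternatives tried were equal list lengths, a −log10 q minimum of 5, other gene windows (0 or 10000 bp of flank, or summit inside), an overlap of 50%, other scalings of the fold, a wider promoter, 100-bp sequence windows, leave-one-out fits and a replicate block.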

Additional observations from a re-analysis of the deposited data

How the results depend on the processing

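The differences in member genes with a peak (2) and member peaks (3) kept their direction under every alternative run, at 1 to 3 genes and 2 to 4 peaks when a library was left out. Their exact permutation tests cannot reach 0.05, so these say little about stability. For genes with a peak the difference was 1.5 with the gene body only, and 1.5 with 10000 bp of flank. In both settings the exact permutation p was above the smallest possible 0.333, so the groups did not stand fully apart. With equal numbers of peaks, the difference at the further pathway genes turned from 5 to −1.5 peaks and from 1 to −1.5 genes with a peak. When a library was left out, regions called only in control numbered 0 to 2, only in si-N6AMT1 1 to 5 and in a single library 3 to 8, because 2 libraries of a group become 1. The METTL4 region called only in si-N6AMT1 was found at each −log10 q and list length tried. The density of the members against coding genes rose from 0.606 to 0.868 without FTO. The log2 fold difference at N6AMT1 was −0.10 on fragments per relative depth and −0.0083 without control replicate 2, with leave-one-out values up to 0.22, and that at FTO was 0.02 on fragments per relative depth, against 0.62 as reported, and 0.36 to 0.87 with a library left out. The cause was not tested. Over all regions, limma passed 29 as reported, 53 with folds centred on the median of each library (26 higher and 27 lower, against 6 and 23), 0 on fragments per relative depth (856 at an unadjusted p under 0.05) and 0 to 1 with a library left out (929 to 1370 at an unadjusted p under 0.05). The region at N6AMT1 or FTO was not among them under any alternative. The A or T run was in 35.7% of member windows of 100 bp, against 17.2% of all nuclear regions at that width. It was in 25% of the 4 regions called in 2 or more libraries, against 50% as reported for all members. In windows of 100 bp the purine or pyrimidine run was in 28.6% of members against 18.3% of nuclear regions. Any of the 3 features was in 64.3% against 35.8%. The CA or TG repeat was in 0% of member windows of 100 bp, against 5.50% of nuclear regions, and in 0% of the 4 regions called in 2 or more libraries. The CAGG motif was in 7.14% of member windows of 100 bp, against 20.8% of nuclear regions. The wider motif, added after seeing the data, had the same share as the CAGG motif in member windows of 200 bp, 64.3%. The replicate block gave the same differences of 2 genes, 3 peaks and 5 pathway peaks, with an exact sign-flip p of 0.5, the smallest possible for 2 pairs, and 107 regions in limma, where the N6AMT1 and FTO differences stayed at 0.10 and 0.62. Deviations of same-numbered libraries correlated at 0.0138 over 12132 regions. The sample titles give only a replicate number, and this correlation cannot show whether same-numbered libraries were prepared together. Single peaks rest on 8 to 50 fragments, so counting error alone can decide a weak call, and an uncalled place is not shown to lack 6mA.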
